A study of Homo sapiens with 12 samples.

Results

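Levels of 8 long noncoding RNAs were compared between human cardiomyocytes on a conductive and a non-conductive fibre scaffold: MALAT1, NEAT1, MIAT, LINC01182, TUG1, NORAD, SNHG14 and GAS5. They were taken by name from a deposited table of 60583 gene names, where all 8 were found, and all 8 were among the 21298 genes that passed the filter on low counts and were tested. They were chosen by kind, as nuclear and cardiac noncoding RNAs, with the counts of these same libraries and earlier results from them in view. Their levels and directions are therefore a description. The cell line was RUES2, human embryonic stem cells in long use, labelled wild type. Its cardiomyocytes were 50 days into differentiation when moved to electrospun fibre scaffolds, where they stayed for 3 days. The conductive scaffold (PEDOT here) was 9.75% PEDOT:PSS/PVA, which joins a conducting polymer blend to polyvinyl alcohol. The other (PVA here) was 8% PVA, which does not conduct. Each scaffold had 3 biological replicates with 2 technical libraries each, 12 libraries in all from 1 cell line.

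The libraries were made from total RNA depleted of ribosomal RNA, a method that keeps nuclear transcripts and those without a poly(A) tail. A library held 19.1 to 30.95 M counted read pairs, and a replicate, after adding its technical libraries, 44.5 to 57.5 M. The cells carried the markers their label calls for: 8 cardiomyocyte genes, such as the sarcomere genes TNNT2, MYH6 and TTN, summed to 65103 to 85588 CPM (counts scaled to 1 common library size with TMM factors) on PEDOT and 57599 to 77251 CPM on PVA. Markers of other cells were also present. The 8 fibroblast markers summed to 6764, 845 and 3626 CPM in PEDOT replicates 1, 2 and 3, against 3701, 820 and 3229 CPM in PVA replicates 1, 2 and 3. All 5 pluripotency markers were below the filter. In such bulk samples, fewer cells of a type and less RNA per cell cannot be told apart.

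Long noncoding RNAs act as RNA, without being translated. MALAT1 lies in nuclear speckles, the stores of splicing factors, and NEAT1 is the architectural RNA on which paraspeckles assemble. NORAD binds Pumilio repressor proteins in the cytoplasm, MIAT (also called Gomafu) forms its own nuclear domain and binds the splicing factors SF1 and QKI, and TUG1 has been linked to the Polycomb complex PRC2. SNHG14 and GAS5 carry small nucleolar RNAs (snoRNAs) in their introns, and the far end of SNHG14 runs antisense to UBE3A, the Angelman syndrome gene. MIAT, NEAT1 and MALAT1 have all been studied in heart muscle. No role of LINC01182 is given here.

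Several of these RNAs carry elements that can be read in their sequences, which are shown as background on these molecules. MALAT1 and the long NEAT1 transcript end in a triple helix instead of a poly(A) tail. That end forms after the enzyme RNase P cuts off a tRNA-like piece. A library primed on poly(A) could miss such ends. The counts are per gene and do not tell apart the transcripts of NEAT1, so its level per kb mixes them. The ends of GENCODE 29 transcripts MALAT1-202 (bases 8266 to 8355) and NEAT1-202 (bases 22652 to 22743) follow 5′ to 3′, with the paired U-rich runs and the A-rich run in capitals.
MALAT1: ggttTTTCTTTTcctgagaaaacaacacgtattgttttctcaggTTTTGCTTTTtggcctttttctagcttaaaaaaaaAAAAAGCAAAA
NEAT1: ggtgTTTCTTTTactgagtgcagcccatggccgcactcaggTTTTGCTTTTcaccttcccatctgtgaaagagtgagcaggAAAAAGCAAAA
The 3 runs in capitals stood in this order in these 2 genes alone among the longest transcripts of 57133 genes, searched on the transcript strand. The search used the exact letters printed here, so these 2 genes had to match and runs with other letters were not sought. The NEAT1 model stops at the last run, whereas the MALAT1 model goes on for 353 bases. Of NORAD, 3 of its Pumilio elements are shown with 11 bases on each side, from transcript NORAD-201, with the element in capitals.
NORAD site 1: tggaaggcctgTGTATATAatatgaaaaag
NORAD site 8: gaataacacttTGTAAATAgcttttaaaaa
NORAD site 15: attagcctattTGTAAATAcctttgttata
NORAD-201 (5339 bases) held 15 elements of the form TGTANATA on its own strand: 10 TGTATATA, 4 TGTAAATA and 1 TGTACATA. That is 2.81 per kb, against a median of 0.11 per kb over the longest transcripts of 5257 genes with at least 5000 bases, and only 2 of the 5257 genes were as dense, NORAD included. MIAT-218 (10143 bases) held 7 copies of TACTAAC, the letters that SF1 and QKI bind, and again 2 of the 5257 genes were as dense. The stretch from base 5696 to 5898 holds 4 of them, in capitals.
MIAT: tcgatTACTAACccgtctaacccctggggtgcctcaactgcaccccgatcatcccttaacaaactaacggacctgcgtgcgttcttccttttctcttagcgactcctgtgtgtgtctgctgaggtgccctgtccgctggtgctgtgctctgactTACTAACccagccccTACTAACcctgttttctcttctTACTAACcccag
GAS5 belongs to the 5′TOP genes, whose RNAs begin with a C and a run of pyrimidines that ties them to growth signals. The first 30 bases of GAS5-210, a transcript picked because it starts with CTTTT, are printed with those letters in capitals.
GAS5: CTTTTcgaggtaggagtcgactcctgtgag

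**Figure D1:**
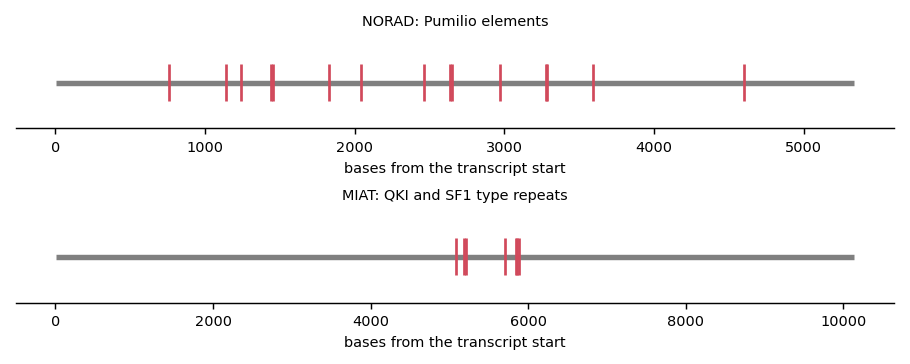
Positions of Pumilio elements in the NORAD transcript (above) and of SF1 and QKI type repeats in the MIAT transcript (below); the grey bar is the transcript, the axis counts bases from its start, and each red line is 1 element. The 15 elements of NORAD are spread over most of its 5339 bases, whereas the 7 repeats of MIAT lie together near the middle of its 10143 bases.

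The 8 RNAs differed widely in level. Per kb of the deposited gene length and averaged over the 6 sums, MALAT1 stood at 2236 CPM per kb, the rank of 8 among the 21298 tested genes. NORAD followed at 87.0, NEAT1 at 75.5 and TUG1 at 31.8 CPM per kb. SNHG14 stood at 7.57, LINC01182 at 7.24 and GAS5 at 5.81 CPM per kb, and MIAT came last at 0.153 CPM per kb, rank 19625. In this order the 6 sums of NORAD and NEAT1 overlapped, as did those of SNHG14 and LINC01182 and those of LINC01182 and GAS5, and the other neighbours did not. MALAT1 alone took 1.66 to 2.37% of all counts in a library, and the 8 together 1.96 to 2.84%. The SNHG14, MIAT and TUG1 models share 8.94%, 7.09% and 6.40% of their exon bases with other genes of the same strand, where the authors' counting leaves reads out, so their levels are lower bounds to that extent.

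**Figure D2:**
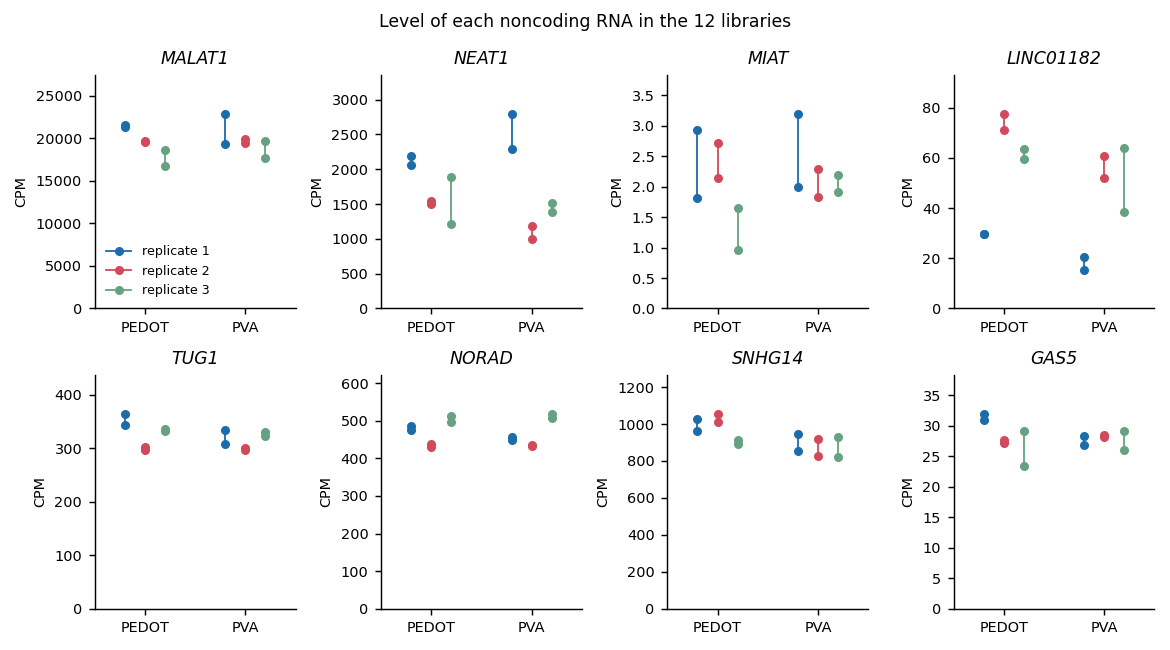
Level (CPM, linear axis from 0) of each RNA in the 12 libraries; each dot is 1 library, a line joins the 2 technical libraries of a replicate, and colours mark the replicate number, with PEDOT left of PVA. LINC01182 was lowest in the 4 libraries of replicate 1 and NEAT1 highest there, and for all 8 RNAs the scaffolds overlapped.

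The main question of the series is whether the conductive scaffold changes gene expression. None of the 8 RNAs differed between PEDOT and PVA when the replicate number was left out of the model: every adjusted p was 1.0 after rounding (edgeR's quasi-likelihood test, two-sided, Benjamini-Hochberg adjustment). Of all tested genes, 0 (0% of 21298) passed in that fit and 190 (0.892%) had an unadjusted p under 0.05, while DESeq2 also called 0. For none of the 8 did the scaffolds separate into PEDOT sums on 1 side and PVA sums on the other, a pattern that 4.60% of tested genes had, 2.28% with PEDOT higher. Same-numbered replicates deviated together on both scaffolds, with correlations across genes of 0.503 to 0.703, so a fit that pairs them was also made. It called 57 genes (0.268%), 15 of them higher (0.0704%) and 42 lower (0.197%) on PEDOT, and LINC01182 was the 1 of the 8 RNAs among those higher. At an unadjusted p under 0.05 the paired fit gave 8.32% of genes and the same 1 of the 8. Whether replicates came from separate differentiations is not stated in the labels, so a p-value here speaks only of the spread among the samples at hand, which may be technical.

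LINC01182 is a spliced intergenic RNA on chromosome 4 (chr4:13654374-14003756 on hg38, forward strand), whose 13 exon blocks cover 6649 bases of a span of 349383. It had 29.5, 73.9 and 61.6 CPM in PEDOT replicates 1, 2 and 3, against 17.7, 55.9 and 50.4 CPM in PVA replicates 1, 2 and 3. The PEDOT value was above its PVA partner in each pair, but replicate 1 of both scaffolds lay below the rest, so the scaffolds overlapped. Means were 55.0 ± 22.9 CPM on PEDOT and 41.3 ± 20.6 CPM on PVA (SD, n = 3 each). The log2 differences were 0.73, 0.40 and 0.29 in pairs 1, 2 and 3. With pairing, LINC01182 was 1.38-fold higher on PEDOT (95% interval 1.24 to 1.54, log2 0.47 ± 0.08 SE, adjusted p = 0.0334 in edgeR). This and the other 95% intervals of folds use the SE and a normal distribution, so they are narrower than the test itself implies. Without pairing the log2 value was 0.41 ± 0.48 SE. Being higher on PEDOT in 3 of 3 pairs was shared by 13.3% of tested genes.

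That paired call depended on which libraries were included. In PVA replicate 3, LINC01182 had 38.6 CPM in technical library 1 and 64.0 CPM in library 3, a 1.66-fold gap within 1 replicate. Without library 1 the paired log2 value was 0.35, the lowest of the 12 with a library left out, and the adjusted p was 0.371. The call was also lost without any 1 of another 6 libraries, at paired log2 values of 0.43 to 0.51 and adjusted p of 0.0668 to 0.143. In these the estimate itself moved little, and the adjusted p also depends on all other tested genes. Without library 3 of PEDOT replicate 1 the log2 value was 0.468 ± 0.085 SE, against 0.466 ± 0.082 SE with all libraries. The genes called then fell from 57 to 4. With only the lower-numbered technical library of each replicate the paired log2 value was 0.66 (adjusted p = 0.0524), and with only the higher-numbered it was 0.28 (adjusted p = 0.639). In PEDOT replicate 3 the libraries had 63.5 and 59.5 CPM, so library 3 of PVA replicate 3 lay at the level of its PEDOT partner. The log2 difference stayed above 0 in all 23 paired alternatives, and the call held in 11 of them. DESeq2 with pairing gave an adjusted p of 0.00185.

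The summed level of the 8 cardiomyocyte markers was 65103, 85588 and 80768 CPM in PEDOT replicates 1, 2 and 3, against 57599, 73528 and 77251 CPM in PVA replicates 1, 2 and 3. TTN, the gene of the giant sarcomere protein titin, made up 56.9 to 64.0% of each sum. The other 7 markers summed to 24216, 30853 and 29517 CPM on PEDOT against 23087, 31700 and 28622 CPM on PVA, in replicate order, so in pair 2 that sum was the lower on PEDOT. Of the 8 markers, TNNT2, RYR2, TTN and MYBPC3 were higher on PEDOT in 3 of 3 pairs and the other 4 were not, and 0 were called. Per 10000 CPM of these markers, LINC01182 stood at 4.54, 8.63 and 7.62 on PEDOT against 3.08, 7.60 and 6.53 on PVA, in replicate order. The log2 differences were then 0.56, 0.18 and 0.22. Per 10000 CPM of the 7 markers without TTN they were 0.67, 0.44 and 0.24, above 0 in each pair by either scaling. The part of cardiomyocyte content in the LINC01182 difference was not tested further.

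**Figure D3:**
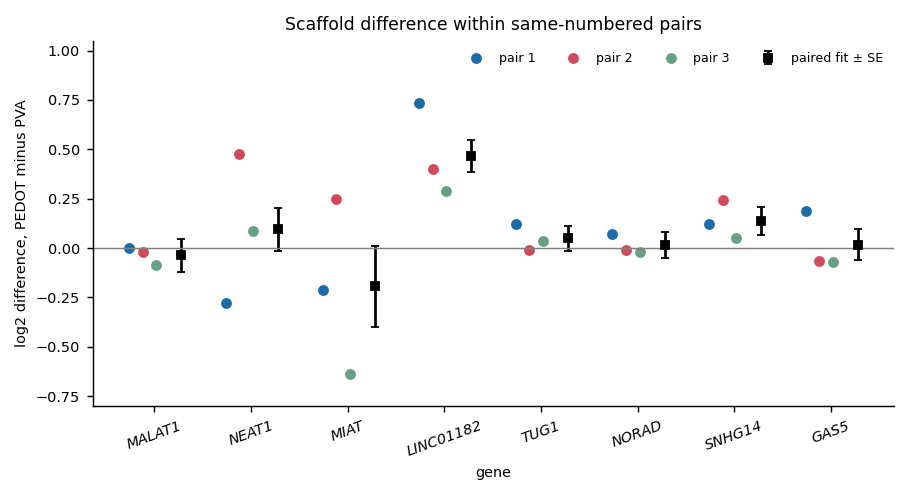
Difference in log2 CPM, PEDOT minus PVA, within each same-numbered pair (coloured dots) and the paired edgeR estimate with its SE (black squares) for the 8 RNAs. All 3 pairs of LINC01182 lie above 0, at 0.29 to 0.73, while the pairs of NEAT1 and MIAT fall on both sides of 0.

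The promoter of LINC01182 is printed because it is the 1 RNA of the 8 that was called between scaffolds. RefSeq (GRCh38.p14, the same build as hg38) lists it at chr4:13654929-13655228 on the forward strand, 250 bases before to 50 after a start that lies inside the deposited model, not at its first base. Capitals mark 2 motifs that lie on the reverse strand. The first, at base 238, is AGATAA, of the type bound by GATA factors. The next, at base 272, is CATTCC, the MCAT motif of TEAD factors. Both appear below as their reverse complements.
LINC01182 promoter: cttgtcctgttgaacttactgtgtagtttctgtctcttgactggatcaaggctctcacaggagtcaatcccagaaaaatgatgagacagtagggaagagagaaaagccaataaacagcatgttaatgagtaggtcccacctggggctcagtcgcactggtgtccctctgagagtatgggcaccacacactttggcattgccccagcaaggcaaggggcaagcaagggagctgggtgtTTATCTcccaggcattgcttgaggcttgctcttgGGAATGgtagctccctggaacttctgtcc
On either strand, AGATAA stood in 10.3% and CATTCC in 14.03% of 35116 RefSeq promoters of the same length, so neither is rare. The motif TATAAA was not in this window and stood in 11.5% of promoters. The window holds 1 CpG, against a median of 14, and 10.97% of promoters hold as few. RefSeq promoters were found for 7 of the 8 RNAs.

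MALAT1 (chr11:65497688-65506516, forward strand, 8829 bases in 1 exon block) was at the same order of level everywhere. It had 21409, 19454 and 17671 CPM in PEDOT replicates 1, 2 and 3, against 21438, 19733 and 18751 CPM in PVA replicates 1, 2 and 3. On both scaffolds replicate 1 was highest and replicate 3 lowest, and the PEDOT and PVA values of a pair lay close together. The paired estimate was 0.975-fold (95% interval 0.870 to 1.09, adjusted p = 0.958, edgeR). Though the PEDOT value was the lower in 3 of 3 pairs, by 0.09 on the log2 scale at most, 15.5% of tested genes had that pattern. Of 12 proteins of nuclear speckles, among them the splicing factors SRSF1, SRSF2 and SRSF3, 4 had a log2 difference above 0 and 8 below, with a median of -0.02, and 0 were called in either fit. Over all tested genes 48.1% were above 0 and the median was -0.01.

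NEAT1 (chr11:65422774-65445540, forward strand, 22767 bases in 1 exon block) varied most within a scaffold among the abundant RNAs. It had 2133, 1508 and 1544 CPM in PEDOT replicates 1, 2 and 3, against 2587, 1083 and 1452 CPM in PVA replicates 1, 2 and 3. Replicate 1 was highest on both scaffolds, and the spread was wider on PVA, where the SD was 783.8 CPM, than on PEDOT, where it was 350.9 CPM, a difference that was not tested. The PEDOT value was lower in pair 1 (log2 -0.28) and higher in pairs 2 and 3 (0.48 and 0.09). With pairing the fold was 1.07 (95% interval 0.922 to 1.24, adjusted p = 0.899, edgeR). The libraries of PEDOT replicate 3 had 1887 and 1207 CPM, a 1.56-fold gap. NEAT1 amounted to 9.96, 7.75 and 8.74% of the MALAT1 level on PEDOT and to 12.1, 5.49 and 7.74% on PVA, per CPM and in replicate order.

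No gene for a paraspeckle protein was called. Of 15 listed, which include NONO, SFPQ and PSPC1 of the DBHS family at the core of the paraspeckle, 3 had a log2 difference above 0 and 12 below, with a median of -0.04, and 0 were called. NONO had 212 ± 4.6 CPM on PEDOT and 234 ± 12.1 CPM on PVA (SD, n = 3 each), a log2 difference of -0.14 ± 0.08 SE. Of 6 tested factors that process tRNA-like and other noncoding 3′ ends, 1 was above 0 and 5 below with 0 called. Among them ELAC2, the RNase Z that trims tRNA 3′ ends, had 61.2 ± 1.7 CPM on PEDOT and 67.3 ± 5.6 CPM on PVA. RPPH1, the RNA of RNase P, is listed at 0 in all libraries. So are the nuclear RNAs RN7SK, SCARNA2 and SCARNA13, whereas RMRP had 700 to 1385 CPM in the 6 sums. Why these genes stand at 0 was not tested, so the 0 of RPPH1 is not read as absence of that RNA.

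MIAT (chr22:26646411-26676475, forward strand, 11 exon blocks) was close to the limit of detection, with 23 to 84 counts a library. It had 2.31, 2.41 and 1.30 CPM in PEDOT replicates 1, 2 and 3, against 2.69, 2.02 and 2.04 CPM in PVA replicates 1, 2 and 3. The scaffolds overlapped, and PEDOT replicate 3 was lowest. Counting error alone was wide: the library with 23 counts (0.96 CPM) has an exact 95% Poisson interval of 0.61 to 1.44 CPM, and that with 84 counts (3.20 CPM) 2.55 to 3.96 CPM, covering counting error only. The paired fold of 0.875 has a 95% interval of 0.663 to 1.153 (adjusted p = 0.885, edgeR). The mRNAs of 6 splicing factors linked to MIAT, SF1 and QKI among them, summed to 1331 to 1389 CPM on PEDOT and 1265 to 1362 CPM on PVA. Of the 6, 3 were above 0 and 3 below, with 0 called. Levels of the proteins that bind MIAT were not measured.

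NORAD (chr20:36045618-36051018, reverse strand, 1 exon block of 5401 bases) gave the closest technical libraries of the 8, no more than 1.03-fold apart. It had 479, 432 and 506 CPM in PEDOT replicates 1, 2 and 3, against 455, 434 and 513 CPM in PVA replicates 1, 2 and 3. On both scaffolds replicate 2 was lowest and replicate 3 highest, and the difference between scaffolds was smaller than that spread. The paired fold was 1.01 (95% interval 0.924 to 1.10, adjusted p = 0.979, edgeR). Of its 5 listed protein partners, 4 had a log2 difference above 0 and 1 below, with 0 called. PUM2, a Pumilio repressor, had 139 ± 3.9 CPM on PEDOT and 134 ± 3.4 CPM on PVA (SD, n = 3 each).

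TUG1 (chr22:30969245-30979395, forward strand) had 353, 297 and 335 CPM in PEDOT replicates 1, 2 and 3, against 324, 299 and 327 CPM in PVA replicates 1, 2 and 3. Replicate 2 was lowest on both scaffolds, and the groups overlapped. Its paired fold was 1.03 (95% interval 0.947 to 1.13, adjusted p = 0.913, edgeR). Of 6 genes of PRC2, the complex that methylates histone H3, 2 were above 0 and 4 below, with 0 called. SUZ12, a core subunit, had 61.9 ± 6.5 CPM on PEDOT and 63.4 ± 3.7 CPM on PVA.

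SNHG14 (chr15:24978583-25420336, forward strand) is the long host transcript of the imprinted Prader-Willi region, and its deposited model counts 141 exon blocks over 122609 bases. It had 990, 1026 and 904 CPM in PEDOT replicates 1, 2 and 3, against 909, 868 and 872 CPM in PVA replicates 1, 2 and 3. PEDOT replicate 3 lay just below PVA replicate 1, which was the only overlap. Each pair had the higher value on PEDOT, as did 13.3% of tested genes, with log2 differences of 0.12, 0.24 and 0.05. The paired fold of 1.10 (normal 95% interval 1.00 to 1.21) did not pass. Its unadjusted p was 0.0692 and its adjusted p 0.650 in edgeR, so the interval is narrower than that test implies. SNHG14 was the only 1 of the 8 for which the scaffold took more of the variance in log2 CPM than the replicate number did, 58.4% against 22.9%, although the whole spread was small, with an SD of 0.10 on the log2 scale.

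Other genes of the Prader-Willi region lay on both sides of 0. Of 7 tested, 3 had a log2 difference above 0 and 4 below, with 0 called. UBE3A, the ubiquitin ligase gene on the opposite strand, had 218, 196 and 221 CPM on PEDOT against 222, 210 and 225 CPM on PVA, in replicate order. The ratio of SNHG14 to UBE3A in CPM was 4.53, 5.22 and 4.09 on PEDOT and 4.10, 4.12 and 3.88 on PVA. SNRPN, the splicing protein gene upstream whose model shares exon bases with SNHG14, had 62.0 ± 4.3 CPM on PEDOT and 58.3 ± 8.2 CPM on PVA (SD, n = 3 each). Of 5 snoRNAs listed for this host, 4 are listed at 0 in all libraries and none was tested. That list leaves out the SNORD115 and SNORD116 genes of the same host. Of these, SNORD116-17, within the SNHG14 span, was tested and not called, at 0.39 ± 0.15 CPM on PEDOT and 0.30 ± 0.10 CPM on PVA. The reads of SNORD genes inside the exons of SNHG14 are not counted for either gene.

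GAS5 (chr1:173858559-173868882, reverse strand, 4 exon blocks) had 31.4, 27.2 and 26.4 CPM in PEDOT replicates 1, 2 and 3, against 27.6, 28.4 and 27.8 CPM in PVA replicates 1, 2 and 3. PEDOT replicate 1 was highest and PEDOT replicates 2 and 3 were lowest, with the PVA values between them. The paired fold was 1.01 (95% interval 0.909 to 1.13, adjusted p = 0.980, edgeR). Its counts of 544 to 923 a library limit its precision more than those of NORAD or TUG1. Of 10 snoRNAs listed for GAS5 introns, 0 were found under those names in the deposited table, so they were not analysed. Of 14 other 5′TOP and snoRNA host genes, such as SNHG5 and ZFAS1, 6 were above 0 and 8 below, and of 10 genes of nonsense-mediated decay, which degrades spliced GAS5 RNA, 5 were above 0 and 5 below. None of these 24 was called.

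LINC01182 and NEAT1 also differed between replicate numbers. In the fit with both terms, 6776 genes (31.8%) differed between replicate numbers, and among the 8 RNAs LINC01182 (adjusted p = 2.24e-07, edgeR) and NEAT1 (adjusted p = 3.31e-04) did, which is 2 of 8. LINC01182 was higher in replicates 2 and 3 than in replicate 1, by 1.48 and 1.27 on the log2 scale. NEAT1 was lower there, at -0.88 and -0.66. For all genes the median size of these differences was 0.28 and 0.20. Both calls were kept in 13 of 13 alternatives. The adjusted p was 0.0880 for NORAD, 0.170 for TUG1, 0.186 for MIAT, 0.210 for MALAT1, 0.568 for GAS5 and 0.609 for SNHG14.

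These differences had 1 direction on both scaffolds. Replicate 2 held 2.50 times the LINC01182 level of replicate 1 on PEDOT and 3.14 times on PVA, and replicate 3 held 2.08 times on PEDOT and 2.84 times on PVA. NEAT1 in replicate 2 stood at 0.707 of replicate 1 on PEDOT and 0.419 on PVA, and in replicate 3 at 0.724 on PEDOT and 0.561 on PVA. Replicate number took 86.9% of the variance of LINC01182 in log2 CPM, 84.1% of NEAT1, 93.5% of MALAT1 and 94.98% of NORAD, against a median of 70.4% over all tested genes. The total spread differed greatly between them: the SD in log2 CPM was 0.77 for LINC01182 and 0.44 for NEAT1, but 0.11 for MALAT1 and NORAD.

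Markers of other cells moved with the replicate number too. Every 1 of the 8 fibroblast markers and of the 8 smooth muscle and pericyte markers differed between replicate numbers, as did 7 of 8 cardiomyocyte markers. Of all tested genes 31.8% did. COL1A1, a fibroblast collagen, had 2983, 289 and 1699 CPM in PEDOT replicates 1, 2 and 3, against 1508, 266 and 1561 CPM in PVA replicates 1, 2 and 3. POSTN, a matrix protein gene of the same list, ran the other way, at 15.7, 40.6 and 20.5 CPM on PEDOT against 13.9, 45.8 and 15.0 CPM on PVA, in replicate order. PDGFRA of that list was highest in replicate 3, at 21.3 CPM on PEDOT and 29.1 CPM on PVA. Replicate 1, where LINC01182 was lowest and NEAT1 highest, had the lowest cardiomyocyte sum and the highest fibroblast sum on each scaffold. The fibroblast sums of replicates 1 and 3 were 6764 and 3626 CPM on PEDOT and 3701 and 3229 CPM on PVA. LINC01182 was high in replicates 2 and 3 alike, whereas the fibroblast sum was far lower in replicate 2 than in replicate 3. Of 7 endothelial markers 2 differed, and the sum of the 7 was 13.2 to 18.4 CPM on PEDOT and 18.9 to 22.9 CPM on PVA. Most of that sum was KDR, at 12.1 to 14.2 CPM on PEDOT and 16.1 to 20.8 CPM on PVA. The highest value of any other was 1.41 CPM, of ERG. Between scaffolds, 3 of the 7 had a log2 difference above 0 and 4 below, with 0 called. All 4 tested neural markers and 4 of 5 tested epithelial and endoderm markers differed, with sums under 84 CPM in each replicate on each scaffold. The part of cell makeup in the LINC01182 and NEAT1 differences was not tested. Of these marker lists, only RGS5, a pericyte gene, was called between scaffolds with pairing, at a log2 difference of -0.46 ± 0.06 SE (adjusted p = 0.00795, edgeR).

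**Figure D4:**
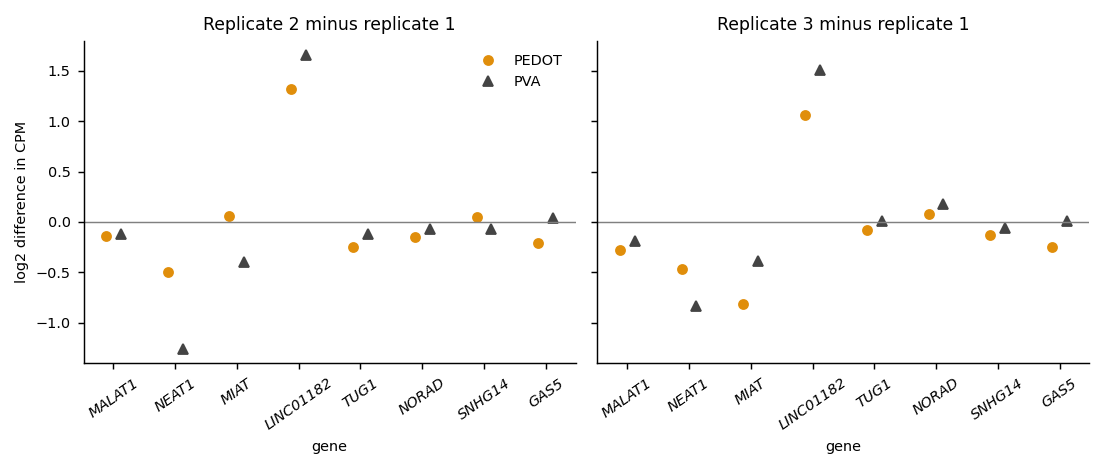
Difference in log2 CPM of replicate 2 (left) and replicate 3 (right) from replicate 1 on PEDOT (orange circles) and PVA (dark triangles) for the 8 RNAs. LINC01182 lies above 1 on both scaffolds and NEAT1 below -0.4, while MALAT1, TUG1, NORAD, SNHG14 and GAS5 stay between -0.28 and 0.17.

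Genes whose log2 CPM followed each RNA most closely over the 12 libraries were looked up among 11791 genes with a mean of at least 5 CPM; the correlations describe these libraries, which come in technical pairs and share replicate numbers. LINC01182 was followed best by LINC01405 (Pearson r = 0.976, Spearman rho = 0.888), a noncoding RNA of the cardiac list, and by STRIP2 (r = 0.973, rho = 0.860). LINC01405 had 15.5, 43.8 and 34.9 CPM in PEDOT replicates 1, 2 and 3, against 8.84, 39.3 and 27.7 CPM in PVA replicates 1, 2 and 3, low in replicate 1 on both scaffolds like LINC01182. Its paired log2 difference was 0.41 ± 0.10 SE (adjusted p = 0.162, edgeR), which did not pass. NEAT1 was followed by MYO1E, an unconventional myosin (r = 0.965, rho = 0.972), and by RAPGEF4, a cyclic AMP sensor (r = 0.962, rho = 0.972). MYO1E had 74.4, 48.1 and 50.9 CPM on PEDOT against 88.7, 40.5 and 52.4 CPM on PVA, in replicate order, high in replicate 1 on both.

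**Figure D5:**
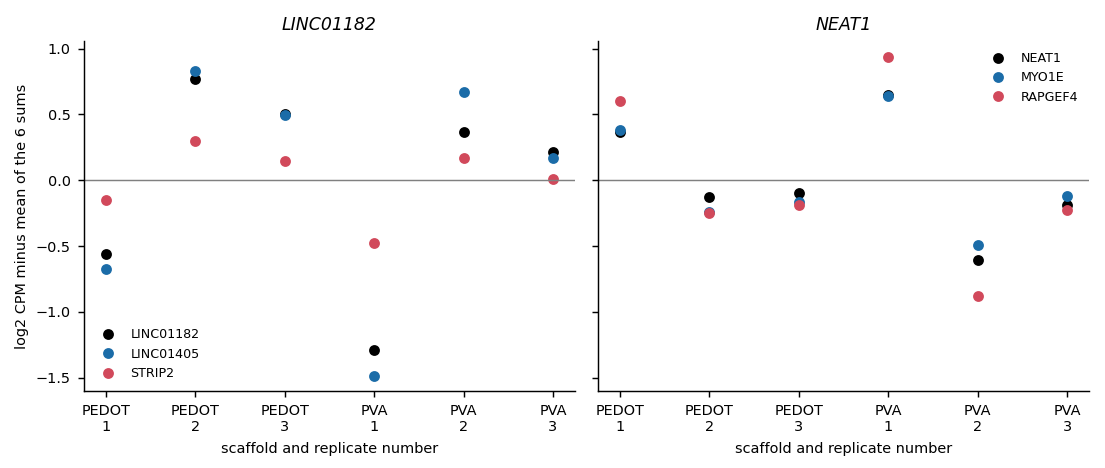
Log2 CPM of LINC01182 with LINC01405 and STRIP2 (left) and of NEAT1 with MYO1E and RAPGEF4 (right) in the 6 sums of technical libraries, each minus its own mean over the sums. The LINC01182 group is lowest in replicate 1 of both scaffolds and the NEAT1 group highest there, with r = 0.962 to 0.976 over the 12 libraries behind these sums.

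NORAD was followed by PRRX1 (r = 0.958), a mesenchymal transcription factor with 29.3, 9.43 and 59.8 CPM in PEDOT replicates 1, 2 and 3 against 24.7, 8.61 and 60.7 CPM in PVA replicates 1, 2 and 3, and by LINC00649 (r = 0.958). PRRX1 spans a far wider range than NORAD but has the same order, replicate 3 highest and replicate 2 lowest. TUG1 was followed by NR3C1, the glucocorticoid receptor (r = 0.975, rho = 0.993), and AC068700.1 (r = 0.948). The nearest genes to the others were less close: OLMALINC (r = 0.884) and PIK3C3 (r = 0.873) for MALAT1, TTC5 (r = 0.893) and ZSCAN23 (r = 0.856) for MIAT, ZNF875 (r = 0.899) and FAM13A-AS1 (r = 0.882) for SNHG14, SLC5A6 (r = 0.854) and CPVL (r = 0.846) for GAS5. Among the 8 RNAs themselves, NEAT1 and LINC01182 ran opposite (r = -0.773), while MALAT1 and MIAT (r = 0.727) and TUG1 and NORAD (r = 0.699) ran together.

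The neighbouring genes named here, the nearest tested ones on the chromosome, were not called between scaffolds in either fit. AC007126.1, on the reverse strand within the LINC01182 span, had 1.39, 3.68 and 3.79 CPM in PEDOT replicates 1, 2 and 3, against 1.08, 3.61 and 3.85 CPM in PVA replicates 1, 2 and 3. It shared the low replicate 1 (adjusted p = 7.38e-05 between replicate numbers, edgeR; r = 0.934 with LINC01182 over the 12 libraries), but its paired scaffold difference was 0.09 ± 0.17 SE. BOD1L1, the neighbour outside the span, had 81.8 ± 2.4 CPM on PEDOT and 82.6 ± 5.2 CPM on PVA (SD, n = 3 each) and did not pass between replicate numbers. Beside NEAT1, FRMD8 differed between replicate numbers in the same direction (log2 -0.46 and -0.26 for replicates 2 and 3, adjusted p = 0.00928, edgeR), whereas AP000769.1 did not pass. The other neighbours were AP000769.6 of MALAT1, TPST2 and MIATNB of MIAT, MORC2 and SMTN of TUG1, CNBD2 and EPB41L1 of NORAD, SNURF and SNORD116-17 of SNHG14, and GAS5-AS1 of GAS5.

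Other noncoding RNAs were set beside the 8. Of 15 tested RNAs in a list of other cardiac noncoding genes, 11 had a log2 difference above 0 and 4 below. Their median was 0.11 and 0 were called. Between replicate numbers 10 of the 15 differed, beside 31.8% of all tested genes. HAND2-AS1, the divergent partner of the heart gene HAND2, had 315 ± 22.9 CPM on PEDOT and 273 ± 17.5 CPM on PVA (paired log2 0.21 ± 0.06 SE, paired adjusted p = 0.322, edgeR). TRDN-AS1, antisense to triadin, had 15.1 ± 4.2 CPM on PEDOT and 11.3 ± 3.1 CPM on PVA (paired adjusted p = 0.0929). Among nuclear RNAs outside the 8, 4 were tested, 1 above 0 and 3 below, with 0 called.

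By name, 253 of 398 tested LINC genes were above 0 on PEDOT and 145 below (median 0.08), and LINC01182 was the 1 LINC gene called with pairing. Antisense-named genes showed 337 of 545 above 0 (median 0.06) with 0 called, against 48.1% of all tested genes above 0 and a median of -0.01. Their summed level was 3321 to 3584 CPM on PEDOT and 3169 to 3218 CPM on PVA, without overlap, while the sums of the LINC genes overlapped, at 1821 to 2109 CPM on PEDOT and 1686 to 1874 CPM on PVA. The SNHG host genes, 11 of 25 above 0, had a median of -0.01. Their sums, of which SNHG14 is the larger part, did not overlap either, at 1415 to 1532 CPM on PEDOT and 1369 to 1391 CPM on PVA. Ribosomal protein genes had 28 of 82 above 0 and a median of -0.02. Between replicate numbers, 27.6% of LINC genes, 16% of SNHG hosts and 59.8% of ribosomal protein genes differed, beside 31.8% of all genes.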

How the data were processed

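RNA of 12 libraries was sequenced. The authors deposited 1 table of whole-number counts, without normalization, with 1 row for each gene name. Per the file headers, counting used featureCounts 2.0.1 on paired ends with the reversely stranded setting and GENCODE 33. That command sets nothing for reads that map or overlap several times, so reads in exons shared by same-strand genes are left out. STAR, FastQC, edgeR, DESeq2 and the build hg38 are named in the submitters' processing notes. The aligner's version is not given in the sources used here.

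The 2 technical libraries of a replicate, whose difference the labels do not explain, were summed to 6 sums. After filterByExpr (minimum count 10, minimum total 15) and TMM scaling, tests were run with edgeR 4.0.16 in R 4.3.3 (glmQLFit, glmQLFTest, threshold 0.05) with scaffold as the only term. Each SE was obtained from the log2 fold change and the root of F. Log2 CPM used a prior count of 2. Alternatives were a replicate block, DESeq2 1.42.0, other scalings and filters, and leaving out replicates or libraries. Deviations of same-numbered sums correlated at 0.678, 0.703 and 0.503 across genes, and others at -0.609 to -0.005. So the numbers pair the samples, by a rule of every pair over 0.1. That pairing was read from the values and is stated in no label. The scripts were tested on simulated data.

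The 8 RNAs and the lists were chosen with earlier results of these data known. Named genes are the 8, up to 2 of smallest p and any called gene in each list, the nearest tested gene on each side, and the 2 most alike over the libraries. COL1A1, POSTN, PDGFRA, UBE3A and genes named only as examples of a list were chosen after values were seen. Motifs were searched in GENCODE 29 transcripts and RefSeq promoters (GRCh38.p14). No RefSeq promoter sequence was used for NEAT1. Some neighbouring genes under the rule for named genes are not reported here.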

Additional observations from a re-analysis of the deposited data

Results flagged for a closer look

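In MIAT, 1 library of PVA replicate 1 stood apart from the other 5 PVA libraries, at 3.20 CPM from 84 counts. Over the 16 groups of 6 libraries examined this way, it was the only such value. Chance alone flags about 1 in 20 such groups, so 1 flag among 16 is near what chance gives. The 6 libraries of a group also come in technical pairs and are not independent. NEAT1 moved in opposite directions in pairs 1 and 2: both PEDOT libraries of pair 1 were below both PVA libraries (log2 difference -0.28), and both PEDOT libraries of pair 2 were above them (0.48). GAS5 did likewise in the other order, with a log2 difference of 0.19 in pair 1 and -0.065 in pair 2. The difference between pairs was not tested for either gene.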

How the results depend on the processing

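Without the replicate block 0 genes and 0 of the 8 RNAs were called; with it, 57 genes and 1 RNA, LINC01182. That paired count was 97 with DESeq2, 37 with library size only and 389 with every gene that had a count. It was 1 gene, with 0 of the 8 RNAs, under upper-quartile scaling and again with a mean CPM of 5 or more. Using only the lower-numbered technical libraries it was 16 genes, and only the higher-numbered 4, with 0 of the 8 RNAs in each. It was 170, 22 and 284 genes without pair 1, 2 or 3 and 4 to 73 with a library left out, and the 8 RNAs then gave 0 or 1. These paired alternatives, apart from the block itself, DESeq2 and leaving out a pair, were chosen after seeing the data. The cause of these changes was not tested.

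LINC01182's paired adjusted p was 0.186 without pair 2, 0.0853 with upper-quartile scaling, 0.175 with a mean CPM of 5 or more, 0.0524 with the lower-numbered (log2 0.66) and 0.639 with the higher-numbered libraries (log2 0.28). It was 0.0942 and 0.143 without library 2 or 3 of PEDOT replicate 1, 0.0668 without library 1 of PEDOT replicate 2 and 0.0795 without library 1 of PEDOT replicate 3. It was 0.104 without library 3 of PVA replicate 1, 0.124 without library 3 of PVA replicate 2 and 0.371 without library 1 of PVA replicate 3. Without the block its log2 value ran from 0.05 to 0.71 with a replicate left out, lowest without PVA replicate 1.

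Directions of small differences turned: MALAT1 was 0.023 with the higher-numbered libraries (0.017 with the block), NEAT1 -0.00069 and GAS5 -0.021 (-0.031 with the block) with the lower-numbered ones. Leaving out 1 replicate gave MALAT1 -0.10 to 0.031, NEAT1 -0.22 to 0.45, MIAT -0.32 to 0.069, TUG1 -0.0018 to 0.12, NORAD -0.040 to 0.087 and GAS5 -0.058 to 0.067. With the block, leaving out 1 library gave MALAT1 -0.068 to 0.0084, NEAT1 -0.017 to 0.19 and GAS5 -0.034 to 0.071. Leaving out a pair turned NEAT1 to -0.095 (pair 2), MIAT to 0.011 (pair 3), and NORAD to -0.013 and GAS5 to -0.067 (pair 1). Between replicate numbers, MALAT1 passed with library size only (adjusted p = 0.0395) and with every gene that had a count (0.00828), and NORAD with a mean CPM of 5 or more (0.0455). Depth limits MIAT most.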
